A study of Mus musculus with 12 samples.

Results

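Iron storage and transport in macrophages was read from 9 genes: Fth1, Ftl1, Slc40a1, Tfrc, Slc11a2, Steap3, Slc11a1, Ireb2 and Blvrb. They were chosen by name for their roles in holding, moving and sensing iron or in breaking down heme, with earlier results of these data known. Each was found among the 35275 genes listed in the count files. All 9 also passed the filter on low counts, which left 12849 genes for testing. The cells were bone marrow-derived macrophages (BMDMs) of wildtype mice, grown for 6 days with IL-4, IL-10 and M-CSF, the cytokines used to drive an M2 (alternatively activated) state. All 3 groups received these cytokines. They differed in what was added over the 6 days: DMSO as the solvent control, olaparib, an inhibitor of the NAD-consuming PARP enzymes, or MNA, a methylated nicotinamide that derives from NAD. RNA was sequenced in 4 libraries of each group. The labels give replicate numbers 1 to 4 but do not say which mouse each culture came from, so the p-values below measure the spread between libraries. No tumor cells were present in these cultures, and the doses used for them were not given in the sources used here.

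Macrophages take up red blood cells, release the iron from heme, and either store it in ferritin or return it to the blood. Ferritin is a shell of heavy (Fth1) and light (Ftl1) chains. Ferroportin (Slc40a1) is the iron exporter of the cell membrane. Iron enters on transferrin through the transferrin receptor (Tfrc), is reduced in the endosome by Steap3, and crosses the endosomal membrane through DMT1 (Slc11a2). NRAMP1 (Slc11a1) moves metal ions out of the phagosome. The iron regulatory proteins, one of them encoded by Ireb2, bind hairpins in messenger RNA called iron-responsive elements when iron is scarce. A hairpin before the coding sequence then blocks translation, and hairpins after the coding sequence of Tfrc protect that messenger RNA from decay. Counts of messenger RNA, the only readout here, therefore do not show ferritin or ferroportin protein.

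The hairpins are shown because those found here lie on different sides of the coding sequence in different members. A strict form was searched for on the sense strand of annotated transcripts: a bulged C, 5 bases, a 6-base loop of CAGTG followed by A, C or T, and 5 bases able to pair with the first 5, with G opposite T allowed. The loop is in capitals, and each stretch of 29 bases is printed 5′ to 3′ as DNA of the transcript strand, with positions in GRCm38. The first 3 lie in the 5′ untranslated region, in exon 1, of Fth1 (chr19:9982732-9982760, plus strand), Ftl1 (chr7:45459779-45459807, minus strand) and Slc40a1 (chr1:45925465-45925493, minus strand).
Fth1: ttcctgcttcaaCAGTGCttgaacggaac
Ftl1: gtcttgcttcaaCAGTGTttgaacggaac
Slc40a1: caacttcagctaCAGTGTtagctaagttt
The other 4 lie in the 3′ untranslated region of Tfrc, all in exon 19 on the plus strand, at chr16:32631219-32631247, chr16:32631598-32631626, chr16:32631663-32631691 and chr16:32631710-32631738.
Tfrc, hairpin 1: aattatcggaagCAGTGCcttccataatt
Tfrc, hairpin 2: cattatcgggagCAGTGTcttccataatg
Tfrc, hairpin 3: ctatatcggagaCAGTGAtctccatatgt
Tfrc, hairpin 4: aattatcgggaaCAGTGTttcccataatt
Of 20916 protein-coding genes with an annotated 5′ untranslated region, 23 (0.11%) held a match there, and of 21045 with a 3′ untranslated region, 100 (0.475%) held one. For Slc11a2, Steap3, Slc11a1, Ireb2 and Blvrb no match to these letters was found in either region. The strict form misses hairpins with an imperfect stem, so the lack of a match does not show that a gene lacks an iron-responsive element. For the same reason Tfrc may hold more than those printed.

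Total counts were 21146291 to 31446849 per library, and the ranges of the groups overlapped. Values below are CPM, counts scaled to the library total, after TMM normalization, and a gene was called when its Benjamini-Hochberg adjusted p from the edgeR quasi-likelihood test was under 0.05. The library labelled MNA replicate 2 stood apart from the other MNA libraries. By counts it was closer to a DMSO library, DMSO replicate 2, than to any MNA library, and for 5 of the 9 genes its value fell inside the DMSO range. Its label puts it in the MNA group, so it was kept there, and the MNA results of the 9 genes are given with and without it, as are other genes wherever its removal changed a call that is given here. Summed levels of 8 macrophage markers were 4470 to 5730 CPM with DMSO and 8920 to 10700 CPM with olaparib. They were 5660 to 7580 CPM in MNA replicates 1, 3 and 4, and 4110 CPM in MNA replicate 2. Not every marker was high, since Fcgr1 lay at 0.116 to 2.3 CPM. With olaparib 4 of the 8 were called higher and 1 lower, beside 14.3% and 12.8% of all tested genes. Without MNA replicate 2 these were 5 higher and 1 lower, beside 22.5% and 21.2%. Lyz2 was at 1620 to 2530 CPM with DMSO and 5110 to 6560 CPM with olaparib. Cd68 was at 1090 to 1310 CPM with DMSO and 813 to 869 CPM with olaparib. The sum over 3 genes of the IL-4 response (Arg1, Retnla and Chil3) was 32200 to 52400 CPM with DMSO and 18300 to 29800 CPM with olaparib. It was 813 to 1270 CPM in MNA replicates 1, 3 and 4, and 31200 CPM in MNA replicate 2. Most of the DMSO and olaparib sums was Chil3, at 30400 to 50800 CPM and 17100 to 27200 CPM. Arg1 overlapped between these 2 groups (435 to 691 CPM with DMSO, 399 to 1030 CPM with olaparib). So did Retnla (611 to 1140 CPM with DMSO, 751 to 1870 CPM with olaparib). Summed levels of 7 proliferation genes were 260 to 313 CPM with DMSO, 398 to 484 CPM with olaparib, 479 to 502 CPM in MNA replicates 1, 3 and 4, and 282 CPM in MNA replicate 2. Dendritic, B cell and stromal marker lists summed to at most 26.6, 6.83 and 3.06 CPM in any library. The part of these shifts in the iron genes was not tested. In such bulk samples, fewer cells of a type and less RNA per cell cannot be told apart.

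Measured per kilobase of exon, the ferritin chains were the most abundant of the 9 genes. In DMSO libraries the level per kilobase was 1730 ± 353 CPM for Ftl1 and 1550 ± 97.0 CPM for Fth1 (SD, n = 4 for these and the following), and the ranges of these 2 overlapped. Tfrc followed at 101 ± 13.9, Steap3 at 46.2 ± 3.67, Blvrb at 38.4 ± 1.72, Slc11a1 at 31.7 ± 1.49, Slc11a2 at 18.2 ± 1.90 and Ireb2 at 8.27 ± 0.269 CPM per kilobase. Slc40a1 stood last at 0.237 ± 0.0920 CPM per kilobase, on 49 to 72 counts per library. From Fth1 downward no gene's range touched that of its neighbour in this order. Ftl1 is counted here without its near-copies, described below, with which it summed to 7000 to 7160 CPM in the DMSO libraries. The length is that of all annotated exons joined, 3469 bases for Fth1 and 1340 for Ftl1, and can exceed that of the expressed transcript. The ratio of the ferritin chains is therefore not settled by these levels.

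**Figure D1:**
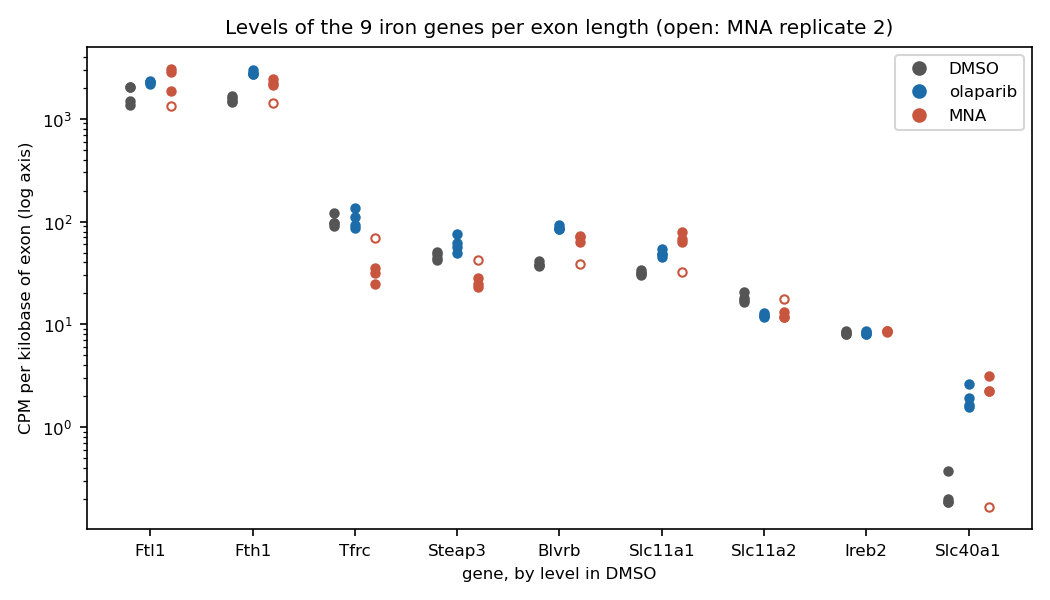
Levels of the 9 genes in CPM per kilobase of exon (y axis, log scale), ordered along the x axis by their DMSO mean. Each point is a library, and the open circle is MNA replicate 2. Ftl1 and Fth1 sit near the top in all groups, while Slc40a1 rises from 0.237 with DMSO to 1.95 with olaparib.

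With olaparib, 4 of the 9 genes rose and 1 fell (Fth1, Slc40a1, Slc11a1 and Blvrb up, Slc11a2 down). Over all tested genes 14.3% rose and 12.8% fell in that comparison. With MNA, 3 rose (Slc40a1, Slc11a1 and Blvrb) and 3 fell (Tfrc, Slc11a2 and Steap3), beside 16.3% and 12.3% of all tested genes. Without MNA replicate 2 the spread estimate shrank for every comparison of the shared fit. Then 5 genes rose and 1 fell with olaparib, the addition being Steap3, where 22.5% of all tested genes rose and 21.2% fell. With MNA, 5 rose and 3 fell, the additions being Fth1 and Ftl1, where 27.2% of all tested genes rose and 26.9% fell. MNA replicate 2 was singled out by its values in these same data, so leaving it out tends to widen the differences between MNA and DMSO. The adjusted p-values without it are therefore descriptions. The median log2 fold change over the 9 genes was 0.39 with olaparib and 0.40 with MNA, or 0.54 with MNA when replicate 2 was left out, and over all tested genes it was 0.00 in both. Both treatments were compared with the same DMSO libraries. Because the 9 genes were chosen with earlier results of these data known, these counts and medians are descriptions.

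**Figure D2:**
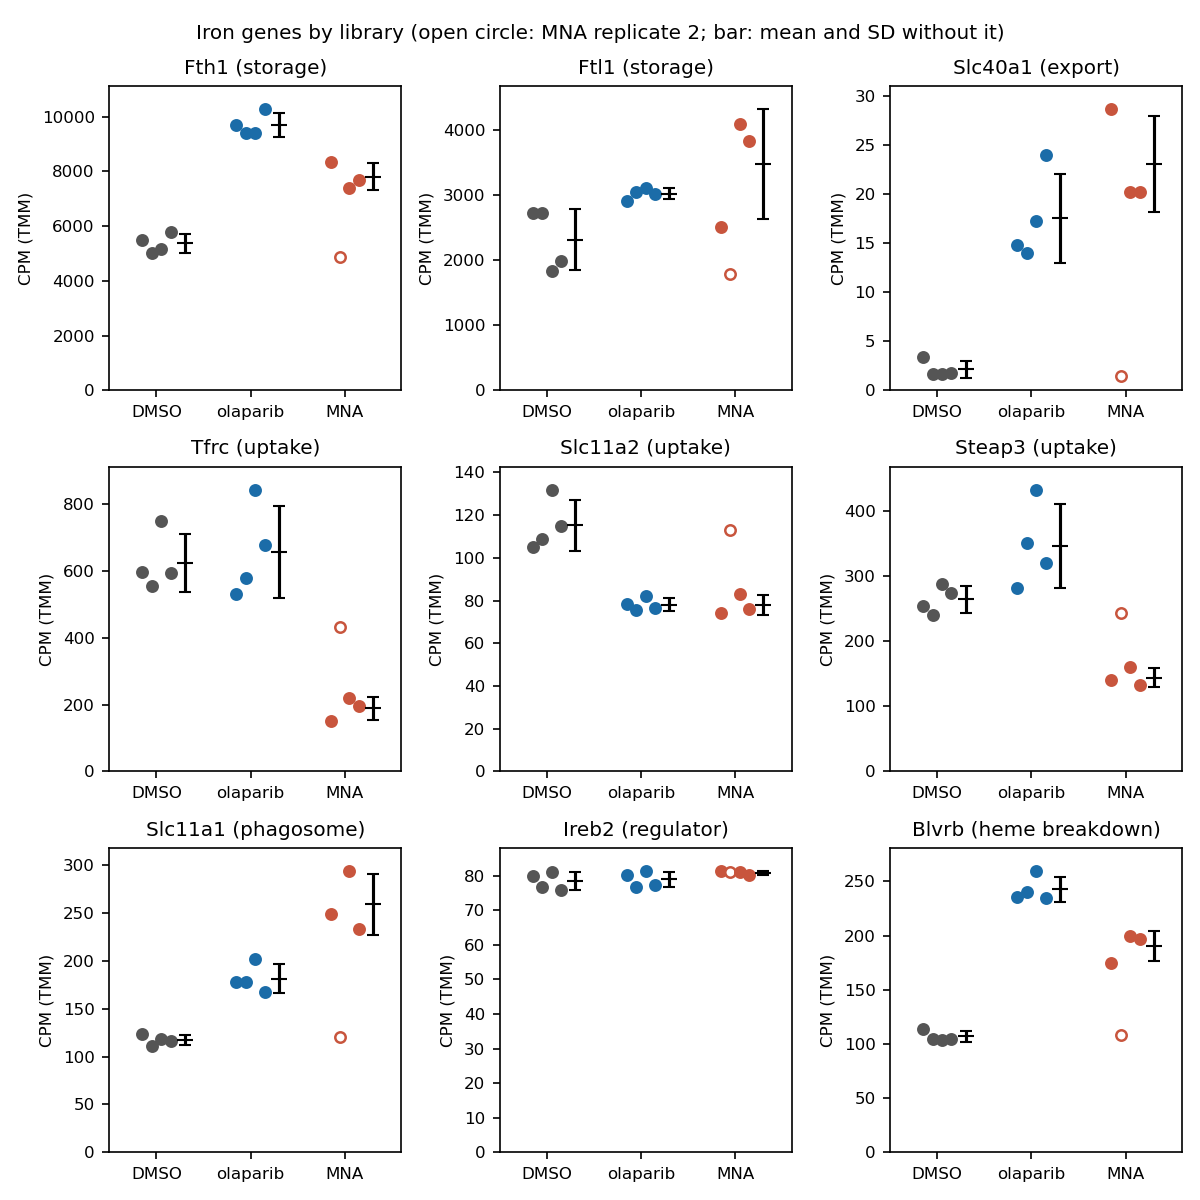
Each of the 9 genes in every library, in TMM-normalized CPM (y axis, from 0), by group (x axis). Points are libraries, the open circle is MNA replicate 2, and bars give the mean and SD without that library. Slc40a1 was at 1.68 to 3.38 CPM in all DMSO libraries and at 14.0 CPM or more in every olaparib library, while MNA replicate 2 lay at 1.50 CPM.

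Fth1 (chr19:9980598-9985098) encodes the ferritin chain that oxidizes iron as it enters the shell. Its level in DMSO replicates 1 to 4 was 5500, 5030, 5180 and 5780 CPM. In olaparib replicates 1 to 4 it was 9710, 9390, 9400 and 10300 CPM. In MNA replicates 1, 3 and 4 it was 8350, 7400 and 7700 CPM, and in MNA replicate 2 it was 4870 CPM. All olaparib libraries lay above all others, and MNA replicates 1, 3 and 4 lay between them and the DMSO libraries. The log2 fold change with olaparib was 0.85 ± 0.14 (SE; adjusted p = 0.00198). With MNA it was 0.40 ± 0.14 (adjusted p = 0.0537), which missed the threshold, and 0.54 ± 0.07 (adjusted p = 1.27e-05) without MNA replicate 2.

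Ftl1 (chr7:45457944-45459884), the chain that favours formation of the iron core, was less regular. The DMSO replicates gave 2720, 2720, 1830 and 1990 CPM, and the olaparib replicates 2910, 3050, 3100 and 3020 CPM. MNA replicates 1, 3 and 4 gave 2510, 4090 and 3830 CPM, and MNA replicate 2 gave 1790 CPM. The olaparib libraries lay above all DMSO libraries, yet the difference of 0.38 ± 0.23 on the log2 scale was not called (adjusted p = 0.222, or 0.0509 without MNA replicate 2). The MNA difference of 0.40 ± 0.23 was not called either (adjusted p = 0.187), and without MNA replicate 2 it was 0.59 ± 0.16 (adjusted p = 0.00664).

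Reads of Ftl1 are hard to place, because 64.1% of the 31-base words in its transcripts also occur in other genes. The main one by counts was Ftl2-ps, a processed pseudogene, which held 77858 to 156731 counts per library against 49881 to 105865 for Ftl1 itself. When Ftl1 was summed with the 5 listed genes that hold over 10% of its words (Ftl2-ps, Gm15590, Ftl1-ps1, Ftl1-ps2 and Gm12164), the 4 DMSO libraries drew together at 7160, 7000, 7030 and 7000 CPM. The olaparib libraries gave sums of 7770, 8090, 8630 and 8460 CPM. The MNA sums were 9990, 10400 and 10300 CPM in replicates 1, 3 and 4, and 6880 CPM in replicate 2. In these sums the DMSO, olaparib and MNA ranges did not overlap once MNA replicate 2 was set aside, in the order DMSO, olaparib, MNA. This sum, chosen after the data were seen, differed from DMSO by 0.41 with MNA on the log2 scale (adjusted p = 0.0304) and by 0.53 without MNA replicate 2 (adjusted p = 1.68e-06). With olaparib the difference was 0.23 (adjusted p = 0.186), and 0.22 without MNA replicate 2 (adjusted p = 0.00236). Between olaparib and MNA the sum differed by -0.19 (adjusted p = 0.304), and by -0.31 without MNA replicate 2 (adjusted p = 3.74e-04).

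The share of that sum assigned to Ftl1 itself fell into 2 levels that crossed the groups. It was 38.1% and 38.8% in DMSO replicates 1 and 2, 35.6% to 37.8% in the olaparib libraries, and 39.3% and 37.3% in MNA replicates 3 and 4. In DMSO replicates 3 and 4 it was 26.0% and 28.4%, and in MNA replicates 1 and 2 it was 25.2% and 25.9%. What set the share was not tested. Fth1 did not have this difficulty, since 3.2% of its words were shared and the gene with most of them, Gm6977, held at most 14 counts in a library.

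**Figure D3:**
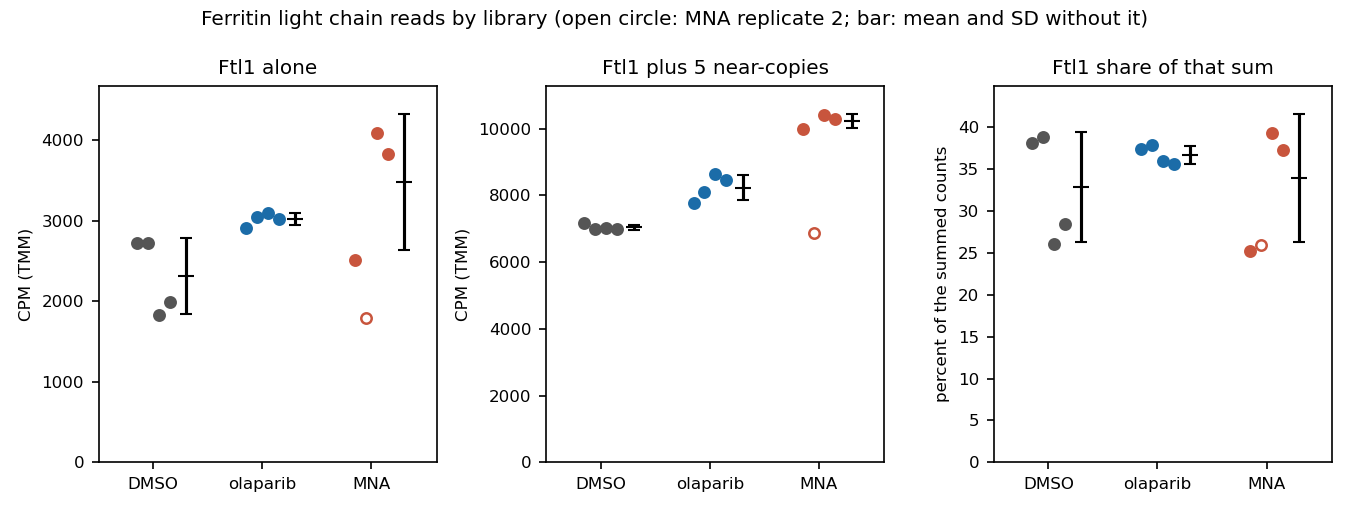
Ferritin light chain reads by library (x axis: group). The panels give CPM of Ftl1 alone, CPM of Ftl1 plus its 5 near-copies, and the percent of the summed counts that Ftl1 holds; the open circle is MNA replicate 2 and bars are the mean and SD without it. The spread among DMSO libraries in the first panel is absent from the second, where they lie at 7000 to 7160 CPM.

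Fth1 and Ftl1 together took 0.679% to 0.830% of all counts with DMSO and 1.19% to 1.33% with olaparib. In MNA replicates 1, 3 and 4 they took 1.10%, 1.15% and 1.17%, and in MNA replicate 2 they took 0.676%. Ftl1 is counted here without its near-copies, and it held only 25.2% to 39.3% of the sum with them. In that sum MNA replicates 1, 3 and 4 lay above the olaparib libraries. The order of olaparib above MNA in these shares is therefore not a result for both chains with near-copies included.

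Slc40a1 (chr1:45908068-45926523), the exporter, had the largest fold change of the 9 genes in both comparisons with DMSO. Its level in the DMSO replicates was 3.38, 1.69, 1.68 and 1.81 CPM. In the olaparib replicates it was 14.8, 14.0, 17.3 and 24.0 CPM. In MNA replicates 1, 3 and 4 it was 28.7, 20.2 and 20.2 CPM, and in MNA replicate 2 it was 1.50 CPM, below every DMSO library. No olaparib library overlapped the DMSO range, and DMSO replicate 1 was the highest of its group. The log2 fold change was 3.06 ± 0.63 with olaparib (8.33-fold, adjusted p = 0.00536). With MNA it was 3.06 ± 0.63 (adjusted p = 0.0142), and without MNA replicate 2 it was 3.47 ± 0.25 (adjusted p = 7.67e-08). Even after this rise Slc40a1 remained the lowest of the 9 genes per kilobase, at 1.95 ± 0.502 CPM with olaparib (SD, n = 4).

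Erythroid markers were looked at beside these genes, since red cell precursors express many iron genes strongly. The sum over 10 erythroid genes was at most 0.704 CPM in 10 of the 12 libraries, 4.17 CPM in DMSO replicate 1 and 57.2 CPM in MNA replicate 4. None of the 10 passed the filter for testing, and Hba-a2 was at 0 in all libraries. The sum over 9 neutrophil genes was also highest in MNA replicate 4, at 68.3 CPM, and was 10.6 CPM in DMSO replicate 1. Slc40a1 was at 20.2 CPM in both MNA replicates 3 and 4. The part of red cell precursors and neutrophils in these values was not tested.

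Tfrc (chr16:32608920-32632794), the transferrin receptor and the gene with the 4 hairpins shown above, separated the treatments. The DMSO replicates gave 596, 555, 749 and 594 CPM, and the olaparib replicates 531, 578, 843 and 677 CPM. MNA replicates 1, 3 and 4 gave 152, 219 and 197 CPM, and MNA replicate 2 gave 432 CPM. DMSO and olaparib libraries overlapped, and all MNA libraries, replicate 2 included, lay below both. The difference between olaparib and DMSO was 0.08 ± 0.27 on the log2 scale (adjusted p = 0.851). With MNA it was -1.32 ± 0.27 (adjusted p = 0.0142), and -1.72 ± 0.16 without MNA replicate 2 (adjusted p = 1.18e-06), a level 3.30-fold lower than in DMSO. Tested directly, olaparib exceeded MNA by 1.40 ± 0.27 (adjusted p = 0.00426), and by 1.80 ± 0.16 without MNA replicate 2 (adjusted p = 1.77e-06).

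Steap3 (chr1:120190757-120272705), the endosomal ferric reductase, was likewise lowest with MNA. Its DMSO values were 254, 241, 288 and 274 CPM, and its olaparib values 282, 351, 433 and 320 CPM. It stood at 140, 160 and 132 CPM in MNA replicates 1, 3 and 4, and at 243 CPM in MNA replicate 2. MNA replicates 1, 3 and 4 lay below all other libraries, and 3 of 4 olaparib libraries lay above all DMSO libraries. The log2 fold change with MNA was -0.65 ± 0.18 (adjusted p = 0.0254), and -0.88 ± 0.12 without MNA replicate 2 (adjusted p = 4.30e-05). With olaparib it was 0.39 ± 0.18 (adjusted p = 0.122), and the same 0.39 ± 0.11 passed the threshold when MNA replicate 2 no longer entered the spread (adjusted p = 0.0119). Olaparib exceeded MNA by 1.04 ± 0.18 (adjusted p = 0.00227), and by 1.27 ± 0.12 without MNA replicate 2 (adjusted p = 3.24e-06).

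Slc11a2 (chr15:100387898-100425072), encoding DMT1, fell with both treatments. It was 105, 109, 132 and 115 CPM in the DMSO replicates and 78.2, 75.5, 82.2 and 76.6 CPM in the olaparib replicates. MNA replicates 1, 3 and 4 gave 74.3, 83.1 and 75.9 CPM, and MNA replicate 2 gave 113 CPM, within the DMSO range. All olaparib libraries lay below all DMSO libraries. On the log2 scale it differed from DMSO by -0.56 ± 0.12 with olaparib (adjusted p = 0.0066) and -0.41 ± 0.12 with MNA (adjusted p = 0.0289), or -0.57 ± 0.08 without MNA replicate 2 (adjusted p = 2.69e-05). The difference between olaparib and MNA was -0.15 ± 0.12 (adjusted p = 0.416), and 0.01 ± 0.08 without MNA replicate 2 (adjusted p = 0.952).

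Slc11a1 (chr1:74375195-74386062), the phagosomal transporter known for its part in resistance to intracellular pathogens, moved opposite to its relative Slc11a2. Its DMSO values were 124, 111, 118 and 116 CPM, and its olaparib values 178, 178, 202 and 167 CPM. MNA replicates 1, 3 and 4 gave 249, 294 and 233 CPM, against 120 CPM in MNA replicate 2. Each of the 3 higher MNA libraries exceeded every olaparib library, and each olaparib library exceeded every DMSO library. Its log2 fold change was 0.63 ± 0.20 with olaparib (adjusted p = 0.0361) and 0.93 ± 0.20 with MNA (adjusted p = 0.0145), or 1.14 ± 0.08 without MNA replicate 2 (adjusted p = 9.61e-08). The olaparib call did not survive leaving out any 1 of the DMSO or olaparib libraries (adjusted p up to 0.0885), while without MNA replicate 2 it was 0.63 ± 0.08 (adjusted p = 2.86e-05). Without that library Slc11a1 was lower with olaparib than with MNA, with a log2 difference of -0.51 ± 0.08 (adjusted p = 2.31e-04).

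Ireb2 (chr9:54863789-54912530), encoding iron regulatory protein 2, was the steadiest member. All 12 libraries lay between 75.9 and 81.5 CPM. Its log2 fold change was 0.01 ± 0.05 with olaparib (adjusted p = 0.891) and 0.05 ± 0.05 with MNA (adjusted p = 0.46), or 0.04 ± 0.05 without MNA replicate 2 (adjusted p = 0.457). Iron regulatory protein 2 is controlled mainly by degradation of the protein, which these counts do not show.

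Blvrb (chr7:27447978-27466144) encodes a biliverdin and flavin reductase of the heme breakdown route, and it had the smallest adjusted p of the 9 genes with olaparib. DMSO replicates gave 114, 105, 104 and 105 CPM, and olaparib replicates 236, 240, 260 and 235 CPM. MNA replicates 1, 3 and 4 gave 175, 200 and 197 CPM, and MNA replicate 2 gave 108 CPM. The groups did not overlap apart from MNA replicate 2, which lay within the DMSO range. The log2 fold change was 1.18 ± 0.15 with olaparib (2.27-fold, adjusted p = 4.06e-04) and 0.67 ± 0.15 with MNA (adjusted p = 0.016), or 0.83 ± 0.06 without MNA replicate 2 (adjusted p = 1.68e-07).

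**Figure D4:**
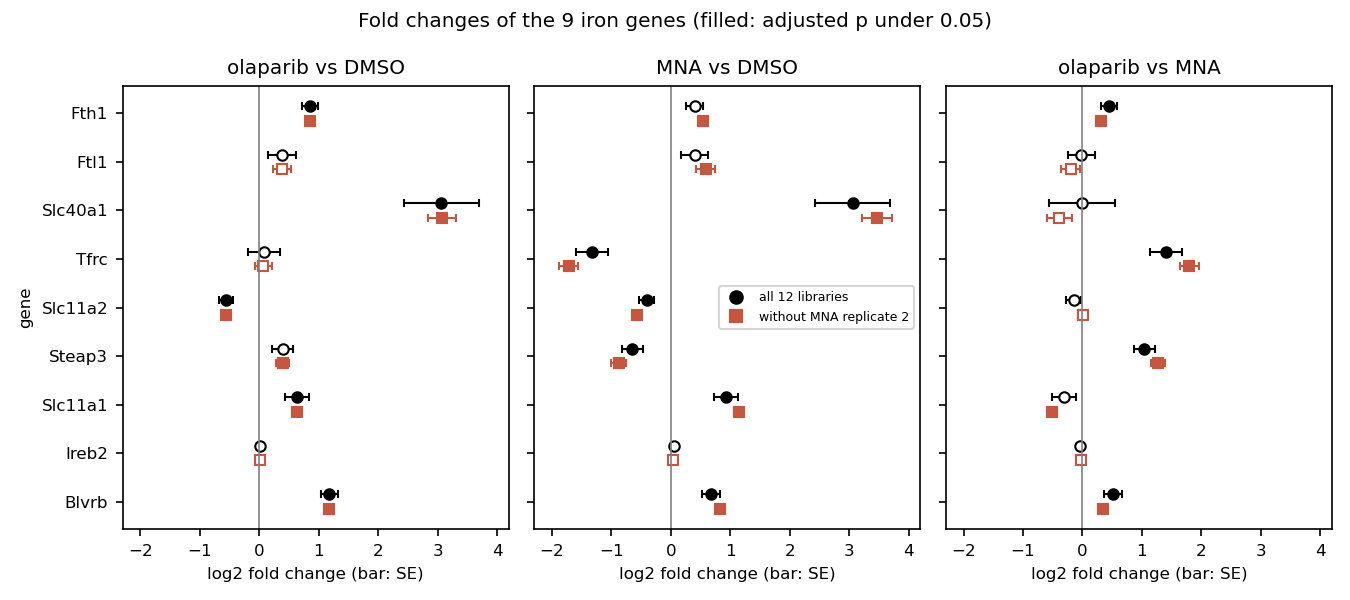
Log2 fold changes (x axis) of the 9 genes (y axis) in the 3 comparisons, with standard errors as bars. Circles use all 12 libraries, squares leave out MNA replicate 2, and filled symbols have an adjusted p under 0.05. Tfrc and Steap3 lie left of 0 with MNA, at -1.32 and -0.65, and right of 0 in olaparib against MNA, at 1.40 and 1.04.

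Compared directly, 4 of the 9 genes were higher with olaparib than with MNA and 0 were lower, beside 10.9% of all tested genes in each direction. The count of lower genes was also 0 at an unadjusted p under 0.05 in edgeR and 0 in DESeq2. The 4 were Tfrc, Steap3, Fth1 at 0.45 ± 0.14 (adjusted p = 0.0404) and Blvrb at 0.52 ± 0.15 (adjusted p = 0.0292). When MNA replicate 2 was left out, Fth1 differed by 0.31 ± 0.07 (adjusted p = 0.00201) and Blvrb by 0.35 ± 0.07 (adjusted p = 7.00e-04). The counts were then 4 higher and 1 lower, Slc11a1, where 21.5% of all tested genes were higher and 20.7% lower. With all 12 libraries Slc11a1 had stood at -0.31 ± 0.20 (adjusted p = 0.298). Ftl1 was not called, at -0.02 ± 0.23 (adjusted p = 0.97), or -0.20 ± 0.16 without MNA replicate 2 (adjusted p = 0.327). Ireb2 was not called either, at -0.04 ± 0.05 (adjusted p = 0.623), or -0.03 ± 0.05 (adjusted p = 0.577). Slc40a1 was not called, at -0.01 ± 0.56 (adjusted p = 0.996), or -0.39 ± 0.21 without MNA replicate 2 (adjusted p = 0.15), and its sign changed between settings.

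Other genes of iron and heme handling were taken from a list of 69, of which 54 passed the filter on low counts. With olaparib 15 of them rose and 6 fell, beside 14.3% and 12.8% of all tested genes. With MNA 6 rose and 7 fell, beside 16.3% and 12.3%, and 10 were higher and 3 lower with olaparib than with MNA, beside 10.9% in each direction. Their median log2 fold change was 0.04, 0.00 and 0.08 in these comparisons, against 0.00, 0.00 and -0.01 over all tested genes. Without MNA replicate 2, of 56 then tested, 19 rose and 13 fell with olaparib, where 22.5% and 21.2% of all tested genes did. With MNA 17 rose and 18 fell, beside 27.2% and 26.9%, and between olaparib and MNA 15 were higher and 7 lower, beside 21.5% and 20.7%. Spic and Lcn2, whose limits are given below, entered the test only there. Several of these counts lie near the share over all genes, and the sublist counts below are to be read against the same shares. This list too was chosen with earlier results of these data known, so its counts are descriptions.

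Of 7 tested genes of heme breakdown and heme transport, 5 rose with olaparib, where 14.3% of all tested genes rose. With MNA 2 rose and 1 fell, beside 16.3% and 12.3% of all tested genes. In the fit without MNA replicate 2, 5 rose with olaparib (22.5% of all tested genes), and 4 rose and 3 fell with MNA (27.2% and 26.9%). Hmox1, the inducible heme oxygenase, went from 377 ± 21.5 CPM with DMSO to 616 ± 36.1 CPM with olaparib (SD, n = 4), a log2 fold change of 0.71 (adjusted p = 0.00104). With MNA its change of 0.16 was not called (adjusted p = 0.243), but it was called at 0.24 without MNA replicate 2 (adjusted p = 0.0398), and the direct difference between olaparib and MNA was 0.54 (adjusted p = 0.00416). Slc48a1, which carries heme out of the phagolysosome, rose by 0.75 with olaparib (adjusted p = 9.98e-05) and by 0.29 with MNA (adjusted p = 0.0232). Slc46a1, a transporter of folate and heme, rose by 0.77 (adjusted p = 0.00247) and by 0.44 (adjusted p = 0.0331). Abcg2, an efflux pump that also accepts porphyrins, rose by 0.81 with olaparib (adjusted p = 0.00101) and fell by 0.52 with MNA (adjusted p = 0.0173). Blvra, the other biliverdin reductase, was not called in either comparison with DMSO, at 0.16 (adjusted p = 0.121) and -0.19 (adjusted p = 0.0627), and it was higher with olaparib than with MNA by 0.35 (adjusted p = 0.00582). Flvcr1, a heme exporter, was not called against DMSO either, at -0.14 (adjusted p = 0.415) and -0.21 (adjusted p = 0.189). Both were called lower with MNA once replicate 2 was left out, Blvra at -0.22 (adjusted p = 0.0227) and Flvcr1 at -0.35 (adjusted p = 0.0037).

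Of 2 tested ferroxidases, which oxidize iron as it leaves the cell, Heph rose with olaparib. It had 0, 1, 2 and 1 counts in the DMSO libraries, 25, 38, 25 and 70 in the olaparib libraries, and 1, 0, 3 and 0 in the MNA libraries. Scaled to total counts, the pooled olaparib to DMSO ratio was 41.3, with a 95% exact interval of 15.8 to 154 that covers counting error only (adjusted p of the edgeR test = 4.04e-04). Heph passed the filter on low counts through the olaparib libraries alone, so that test is not independent of its high group. Cp, the circulating ferroxidase, was at 2.24 ± 0.509 CPM with DMSO and 0.877 ± 0.489 CPM with olaparib, a log2 difference of -1.37 that was not called (adjusted p = 0.0718). With MNA the difference was -1.03 (adjusted p = 0.141). Leaving out MNA replicate 2 brought both past the threshold, at -1.38 with olaparib (adjusted p = 0.00746) and -1.84 with MNA (adjusted p = 0.00218). High Slc40a1 and high Heph did not go together in every library, since MNA replicates 1, 3 and 4 held 20.2 to 28.7 CPM of Slc40a1 and at most 3 counts of Heph.

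Among 4 tested scavengers of hemoglobin and heme, 2 rose with olaparib and 1 fell with MNA. In the fit without MNA replicate 2, 3 rose and 1 fell with olaparib, and 2 rose and 1 fell with MNA. Hp, which encodes haptoglobin, went from 0.509 ± 0.0967 CPM with DMSO to 3.07 ± 0.846 CPM with olaparib, a log2 fold change of 2.58 (adjusted p = 0.00266). Hpx, for hemopexin, had 5 counts in all DMSO libraries together and 44 in the olaparib libraries (adjusted p = 0.0171), a scaled ratio of 9.21 with a 95% exact interval of 3.66 to 29.7. With MNA Hpx was not called (adjusted p = 0.101), but it was called higher without MNA replicate 2 (adjusted p = 0.00811). No DMSO library held more than 3 counts of Hpx, so it passed the filter on low counts through the treated libraries only. These tests of Hpx, which is in the counts above, are not independent of its high groups. Lrp1, the hemopexin receptor, fell by 0.70 with MNA (adjusted p = 0.0349). Its change with olaparib was -0.50 (adjusted p = 0.106), and the same -0.50 was called when MNA replicate 2 no longer entered the spread (adjusted p = 0.0116).

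Of 5 tested genes of iron uptake, 1 rose and 1 fell with olaparib, and 1 rose and 2 fell with MNA. Of 6 tested without MNA replicate 2, 2 rose and 2 fell with olaparib, and 3 rose and 2 fell with MNA. Lcn2, which entered only there, is among the 3 that rose with MNA. It held 120 of its 156 counts in 1 library and was at 1.83 ± 2.6 CPM in MNA replicates 1, 3 and 4. With DMSO it was at 0.149 ± 0.221 CPM, so its call rests mostly on 1 library. Slc39a14, a carrier of iron not bound to transferrin, fell by 0.73 with olaparib (adjusted p = 0.0174) and by 0.64 with MNA (adjusted p = 0.0312). Its relative Slc39a8 fell by 1.0 with MNA (adjusted p = 0.0184) and stood at -0.15 with olaparib (adjusted p = 0.671). Trf, encoding transferrin, was low in all groups, at 0.507 ± 0.159 CPM with DMSO and 1.40 ± 0.288 CPM with olaparib, and rose by 1.48 (adjusted p = 0.00599). Slc22a17, a receptor for the siderophore carrier lipocalin 2, rose by 2.67 with MNA (adjusted p = 0.0172) from 0.152 ± 0.0927 CPM. Its 1.82 with olaparib was not called (adjusted p = 0.0559), and was called without MNA replicate 2 (adjusted p = 0.00585). Slc22a17 passed the filter on low counts through the treated libraries only, so these tests are not independent of its high groups.

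Of 3 tested sensors and regulators, 1 rose with olaparib and 0 were called with MNA, and 1 was higher and 1 lower with olaparib than with MNA. The count with MNA was also 0 at an unadjusted p under 0.05 in edgeR and 0 in DESeq2. Aco1, which encodes iron regulatory protein 1, was at -0.15 with olaparib (adjusted p = 0.0613) and 0.06 with MNA (adjusted p = 0.442). Between olaparib and MNA it differed by -0.21, which was called (adjusted p = 0.02), and the -0.15 with olaparib was called once MNA replicate 2 was left out (adjusted p = 0.0376). Fbxl5, the ligase that targets iron regulatory proteins for degradation, was at 0.06 (adjusted p = 0.641) and 0.13 (adjusted p = 0.237). Hfe, a partner of the transferrin receptor, rose by 0.42 with olaparib (adjusted p = 0.0119) and was higher than with MNA by 0.64 (adjusted p = 0.00141). With MNA it stood at -0.22 (adjusted p = 0.121), and at -0.28 without replicate 2, which was called (adjusted p = 0.0257). Hamp, the gene of the ferroportin-binding hormone hepcidin, had at most 1 count in a library. Ncoa4, the receptor that delivers ferritin to the lysosome, and the iron chaperone genes Pcbp1 and Pcbp2 were not called with either treatment in the 12 libraries. The log2 differences with olaparib and MNA were 0.21 (adjusted p = 0.213) and 0.12 (adjusted p = 0.441) for Ncoa4, -0.19 (adjusted p = 0.0528) and -0.15 (adjusted p = 0.106) for Pcbp1, and 0.14 (adjusted p = 0.33) and 0.23 (adjusted p = 0.0945) for Pcbp2. In the fit without MNA replicate 2, Pcbp1 was called lower at -0.19 with olaparib (adjusted p = 0.0175) and with MNA (adjusted p = 0.0232), and Pcbp2 higher at 0.32 with MNA (adjusted p = 0.00518).

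Of 8 tested genes of heme synthesis, 1 rose and 1 fell with olaparib and 2 rose with MNA, and without MNA replicate 2 these counts were 2 and 1 with olaparib and 3 and 1 with MNA. Alas1, the first and rate-limiting enzyme outside red cells, rose by 1.2 with olaparib (adjusted p = 0.00131) and by 0.80 with MNA (adjusted p = 0.0167), from 111 ± 8.06 CPM with DMSO to 255 ± 17.6 CPM with olaparib. Cpox fell by 0.38 with olaparib (adjusted p = 0.0055). With MNA it stood at -0.20 (adjusted p = 0.0738), and at -0.26 without replicate 2, which was called (adjusted p = 0.00452). Uros rose by 0.48 with MNA (adjusted p = 0.037). Of 14 tested genes of mitochondrial iron and iron-sulfur assembly, 2 rose and 2 fell with olaparib, shares close to the 14.3% and 12.8% of all tested genes. Among them were the assembly scaffold Iscu at 0.38 (adjusted p = 0.00481) and the importer Slc25a28 at -0.46 (adjusted p = 0.00965). With MNA the called gene was Lyrm4 at -0.30 (adjusted p = 0.046). Leaving out MNA replicate 2 gave 2 higher and 3 lower with olaparib, and 2 higher and 5 lower with MNA, beside 27.2% and 26.9% of all tested genes.

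Of 8 tested transcription factors tied to these genes, 2 rose and 2 fell with olaparib, beside 14.3% and 12.8% of all tested genes, and 1 rose and 2 fell with MNA, beside 16.3% and 12.3%. Of 9 tested without MNA replicate 2, 3 rose and 3 fell with olaparib, and 2 rose and 3 fell with MNA. Spic, described below, entered only there and is among the 3 that rose with olaparib. Nfe2l2, which encodes NRF2, an activator of Fth1, Ftl1, Slc40a1, Blvrb and Hmox1, rose by 0.97 with olaparib (adjusted p = 0.00923) and by 1.09 with MNA (adjusted p = 0.0142). Nfe2l2 went from 357 ± 44.6 CPM with DMSO to 699 ± 29.6 CPM with olaparib. These counts do not show NRF2 protein or its activity. Keap1 also rose with olaparib, by 0.38 (adjusted p = 0.0265). With MNA Keap1 stood at 0.27 (adjusted p = 0.0786), and at 0.39 without replicate 2, which was called (adjusted p = 2.47e-04). Bach1, the heme-sensitive repressor of several of these genes, was at -0.12 (adjusted p = 0.329) and -0.05 (adjusted p = 0.703). Its partner gene Mafk fell by 0.51 with olaparib (adjusted p = 0.0048), and Epas1 (HIF-2 alpha) fell by 0.84 with olaparib (adjusted p = 0.0051) and by 0.71 with MNA (adjusted p = 0.0185). Spic, the factor of iron-recycling red pulp macrophages, had too few counts to be tested in the 12 libraries, with at most 19 counts in a library. It passed the filter when MNA replicate 2 was left out, and was then called higher with olaparib than with DMSO, by 1.59 (adjusted p = 0.0123), and than with MNA, by 2.96 (adjusted p = 0.00162). The core of the antioxidant response element that NRF2 binds, TGACNNNGC on either strand, occurred in none of the RefSeq promoters (GRCm38.p6, 250 bases before to 50 after the start) of the 7 members with an entry. Of 27025 genes with a promoter in that table, 14.0% held it. At that share, finding none among 7 members is not a result about them. Sites farther from the start were not searched, so this does not show whether NRF2 can bind at these genes. Slc40a1 and Slc11a2 had no entry.

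**Figure D5:**
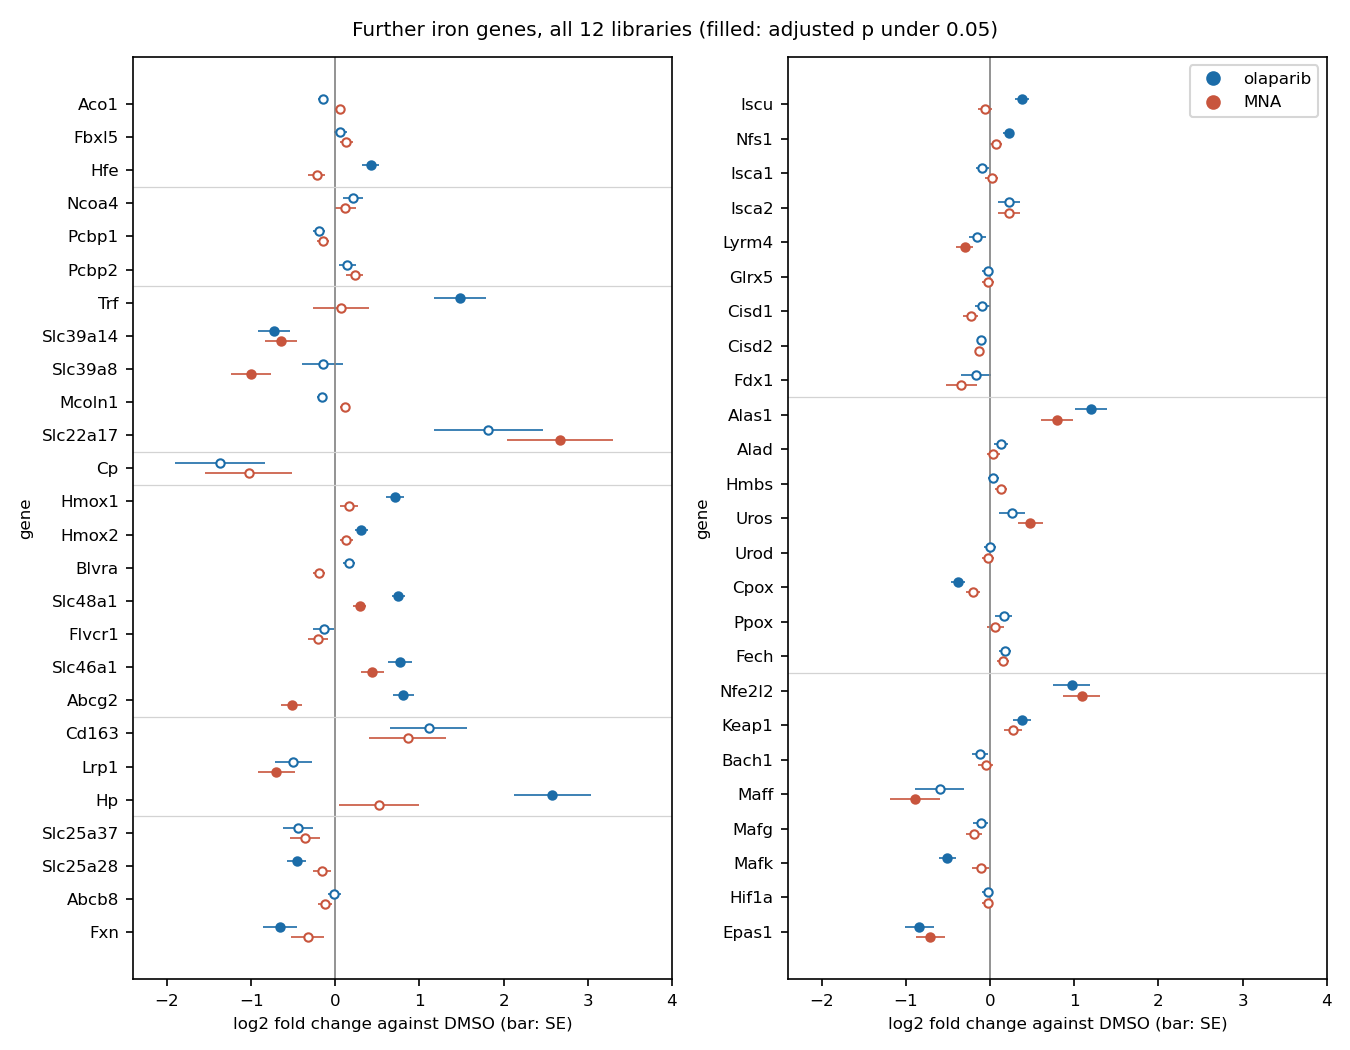
Log2 fold changes against DMSO (x axis, bars are standard errors) of 51 further iron and heme genes (y axis), olaparib in blue and MNA in red, from all 12 libraries; grey lines divide the sublists and filled points have an adjusted p under 0.05. Hmox1, Slc48a1, Slc46a1 and Abcg2 lie right of 0 with olaparib at 0.71 to 0.81, and Abcg2 lies at -0.52 with MNA. Heph and Hpx, with at most 3 counts in each DMSO library, are not drawn.

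For Slc40a1 and Tfrc the genes with the most similar profile over the 12 libraries were found by Pearson's r of log2 CPM, given as a description, since libraries of a group share their treatment. Slc40a1 was nearest to Tmsb4x (r = 0.994), Tkt (r = 0.990) and Tifab (r = 0.990), and most opposed to Hilpda (r = -0.992), Cyb5r1 (r = -0.989) and Glce (r = -0.988). Tfrc was nearest to Dnase2a (r = 0.987), Timp2 (r = 0.979) and Lipn (r = 0.975), and most opposed to Ide (r = -0.978), Wdr19 (r = -0.975) and Tmem206 (r = -0.974).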

How the data were processed

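For each of the 12 libraries the authors deposited a file of unnormalized counts, with 1 value for each Ensembl gene ID. Per the study's methods and the submitters' processing notes, single-end reads of stranded mRNA libraries were aligned with STAR 2.5.2b to GRCm38.p5 with counting per gene enabled. STAR counts reads that align to 1 place, so reads that fit several gene copies equally well are lost. Which strand column was deposited is not given in the sources used here. Groups came from the sample labels.

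Genes were kept by filterByExpr (minimum count 10, minimum total 15) and scaled by TMM, and a single model of all 12 libraries was fitted with edgeR 4.0.16 under R 4.3.3. Contrasts were tested by quasi-likelihood, with Benjamini-Hochberg adjustment over 12849 genes. On simulated data for olaparib against DMSO, edgeR recovered 168 of 200 changed genes with 12 false calls among 12434 genes. The simulated libraries all had the DMSO means apart from those 200 genes, and a spread that followed the level of the gene only. They held no library like MNA replicate 2, so the recovery does not show how the test behaves with such a library. Alternatives were DESeq2 1.42.0, other normalizations, filters and thresholds, each pair of groups alone, a replicate block, and each library left out in turn. Symbols, exon lengths and transcripts came from GENCODE M21 on GRCm38, which held 34490 of the 35275 listed IDs.

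The 9 genes, the further list of 69 and the marker lists were chosen with earlier results of these data known. From the further list, 15 genes were to be named whatever their values, plus the 2 of each sublist with the smallest p with olaparib and with MNA. Slc46a1 and Keap1 were added after their values were seen. The values of 1 gene of that list are not reported here. Same-numbered olaparib and DMSO libraries deviated together from their group means (r = 0.172 to 0.408 over genes), while MNA and DMSO did not in every pair (r = -0.009 to 0.277). In the 12 libraries the block changed no call of the 9 genes for olaparib against DMSO, and without MNA replicate 2 it added Ftl1 (adjusted p = 0.0455 with the block, 0.0509 without).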

Additional observations from a re-analysis of the deposited data

Results flagged for a closer look

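In 27 groups of 4 libraries (the 9 genes in each group), 2 had a library far from the rest, by Dixon's test at the 95% level. Chance alone flags about 1 in 20 groups. Slc40a1 was 3.38 CPM in DMSO replicate 1, against 1.68 to 1.81 CPM in the other DMSO libraries, and the gap took up 0.921 of the group's range. Blvrb was 114 CPM in DMSO replicate 1, against 104 to 105 CPM, with a gap of 0.880 of the range. DMSO replicate 1 had the lowest total count, 21146291, and of the DMSO libraries the highest summed erythroid (4.17 CPM) and neutrophil (10.6 CPM) markers. Their part in these values was not tested. Without DMSO replicate 1 both genes were still called with olaparib.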

How the results depend on the processing

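The 9 genes called with olaparib against DMSO numbered 5 in the main fit, 4 to 6 when 1 library was left out, and stayed within 1.5 times 5 in the other settings. With MNA against DMSO 6 were called, 2 to 8 when 1 library was left out, 0 in a fit of the MNA and DMSO libraries alone, and 0 at an adjusted p under 0.01. The lowest counts were 2 without MNA replicate 3 and 3 without MNA replicate 4. In the fit of MNA and DMSO alone, Slc40a1, Tfrc and Slc11a1 shared an adjusted p of 0.064. In the main fit Slc40a1 and Tfrc shared 0.0142. Apart from the fit without MNA replicate 2, the share of all tested genes called in these settings is not given here. The low counts, also those of the further genes below, are therefore not results about iron genes. Between olaparib and MNA 4 were called, 2 to 5 when 1 library was left out, 2 in a fit of those groups alone and 2 at an adjusted p under 0.01. The count was 2 without any 1 of the olaparib libraries. Of the further iron genes, 21 were called with olaparib, 17 to 32 when 1 library was left out, and 32 without MNA replicate 2. With MNA 13 were called, 1 to 35 when 1 library was left out, 0 in the fit of 2 groups alone and 0 at an adjusted p under 0.01. That count was 5 without DMSO replicate 2 or 3, 6 without DMSO replicate 4, 2 without MNA replicate 1, 1 without MNA replicate 3 or 4, and 35 without MNA replicate 2. In a fit of MNA and DMSO alone without MNA replicate 2, added after the data were seen, it was 29. Between olaparib and MNA 13 were called, 10 to 22 when 1 library was left out, 22 without MNA replicate 2, and 20 in the added fit of 2 groups without it. With the replicate block and without MNA replicate 2 the further genes called were 34, 33 and 23 in these comparisons.

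With the replicate block alone, Fth1 passed the threshold with MNA (0.38, adjusted p = 0.0404), and no call on the 9 genes was lost. Fth1, Slc40a1, Slc11a2 and Blvrb stayed called with olaparib, and Tfrc and Steap3 between olaparib and MNA, in every alternative run. The calls of Slc11a2 and Steap3 with MNA were lost in 7 of 21 alternatives (adjusted p up to 0.0909 and 0.0798), among them the fit of 2 groups alone and the fits that left out DMSO replicate 2, 3 or 4, MNA replicate 1, 3 or 4. Blvrb with MNA was lost in 3 of 21 alternatives and Slc11a1 in 2. Fth1 and Blvrb between olaparib and MNA were lost in 8 and 6 of 21 alternatives (adjusted p up to 0.107 and 0.0858). The causes were not tested, except that these fits use fewer libraries.

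Signs that changed belonged to differences near 0. With olaparib, Tfrc was -0.07 without olaparib replicate 3 (-0.07 to 0.17 over the libraries left out), and Ireb2 was -0.003 without DMSO replicate 2 and -0.01 without DMSO replicate 4 or olaparib replicate 3. Between olaparib and MNA, Ftl1 was 0.01 with the replicate block, 0.0013 without olaparib replicate 1, 0.14 without MNA replicate 3 and 0.11 without MNA replicate 4 (-0.20 to 0.14 over the libraries left out). Slc40a1 was 0.0016 with upper-quartile normalization, 0.01 with a mean of at least 50 counts, 0.29 with the replicate block, and 0.07, 0.09 and 0.0021 without olaparib replicate 1, 2 and 3. It was 0.33, 0.05 and 0.06 without MNA replicate 1, 3 and 4 (-0.39 to 0.33 over the libraries left out). Slc11a2 was 0.03 with the replicate block and without MNA replicate 2, 0.01 without that replicate (-0.22 to 0.01 over the libraries left out), and 0.01 in the added fit of 2 groups without it. Depth limits genes with few counts in DMSO libraries, among them Slc40a1, Heph, Hpx, Hp, Trf and Slc22a17.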
